A study of Mus musculus with 8 samples.

Results

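The 39 genes described here encode enzymes that build fatty acids, triglycerides and cholesterol, together with the proteins that control their transcription. They were chosen by name, with earlier results of these data known, from the 22552 genes of an mRNA table of mouse brown adipose tissue. Brown fat from Null mice, which the labels give as mmu-mir-193b -/- and the series title describes as lacking mir-193b and mir-365-1, was compared with brown fat from wild-type (WT) mice, mmu-mir-193b +/+. Both genotypes were sampled at 2 months of age on a mixed 129SV::FVB/N::C57BL/6 background. The deletion descends from a floxed allele, and the MMTV-Cre transgene used to make it was bred out. There were 3 Null and 3 WT mRNA samples, and 1 Null and 1 WT microRNA sample.

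The authors combined the 3 mRNA libraries of a genotype into 1 column of FPKM, fragment counts scaled to transcript length and to the mapped total. These columns are called the Null pool and the WT pool. With 1 value per genotype there is no SD, no n and no replicate check, so no test between genotypes could be run, and the depth behind the values is unknown. Differences are given as log2((Null + 1)/(WT + 1)) of FPKM, a scale that understates the change of low genes, and negative values mean a lower level in Null.

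In fat synthesis, cytosolic citrate is split to acetyl-CoA, which is carboxylated and assembled into a saturated chain that desaturases then modify. Chains are esterified stepwise onto glycerol 3-phosphate to give triglyceride, the fuel that brown fat stores in many small droplets. Sterols are made from the same acetyl-CoA through mevalonate and squalene. The membrane-bound factors SREBP-1 and SREBP-2 switch on both routes when sterols are low or insulin is high, and ChREBP, which responds to glucose, acts on the fatty acid and triglyceride branch. Brown fat is among the tissues with active fatty acid synthesis.

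Most of these genes were at a lower level in the Null pool. Of the 39 genes, 37 had at least 1 FPKM on average over the pools, here called measured, and 36 of those were above 0 in both pools and so had a ratio. Among these 36, 33 genes were lower in Null by any amount (91.7%), against 49.4% of the 11516 genes measured above 0 in both pools. By 1.5-fold or more, 17 of the 36 were lower (47.2%), against 6.40% of those 11516 genes, and 0 were higher, against 7.62%. By 2-fold or more, 4 were lower, against 1.26%, and this count was 9 with quantile normalization and 10 with the pools scaled to the same sum. The median log2 ratio of the 36 genes was -0.44, and that of all 11597 measured genes was 0.01. Because the genes were chosen with earlier results of these data known, the shares set beside all genes, here and below, are not an independent comparison. Fewer cells of a type and less RNA per cell cannot be told apart in these tissue pools.

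**Figure D1:**
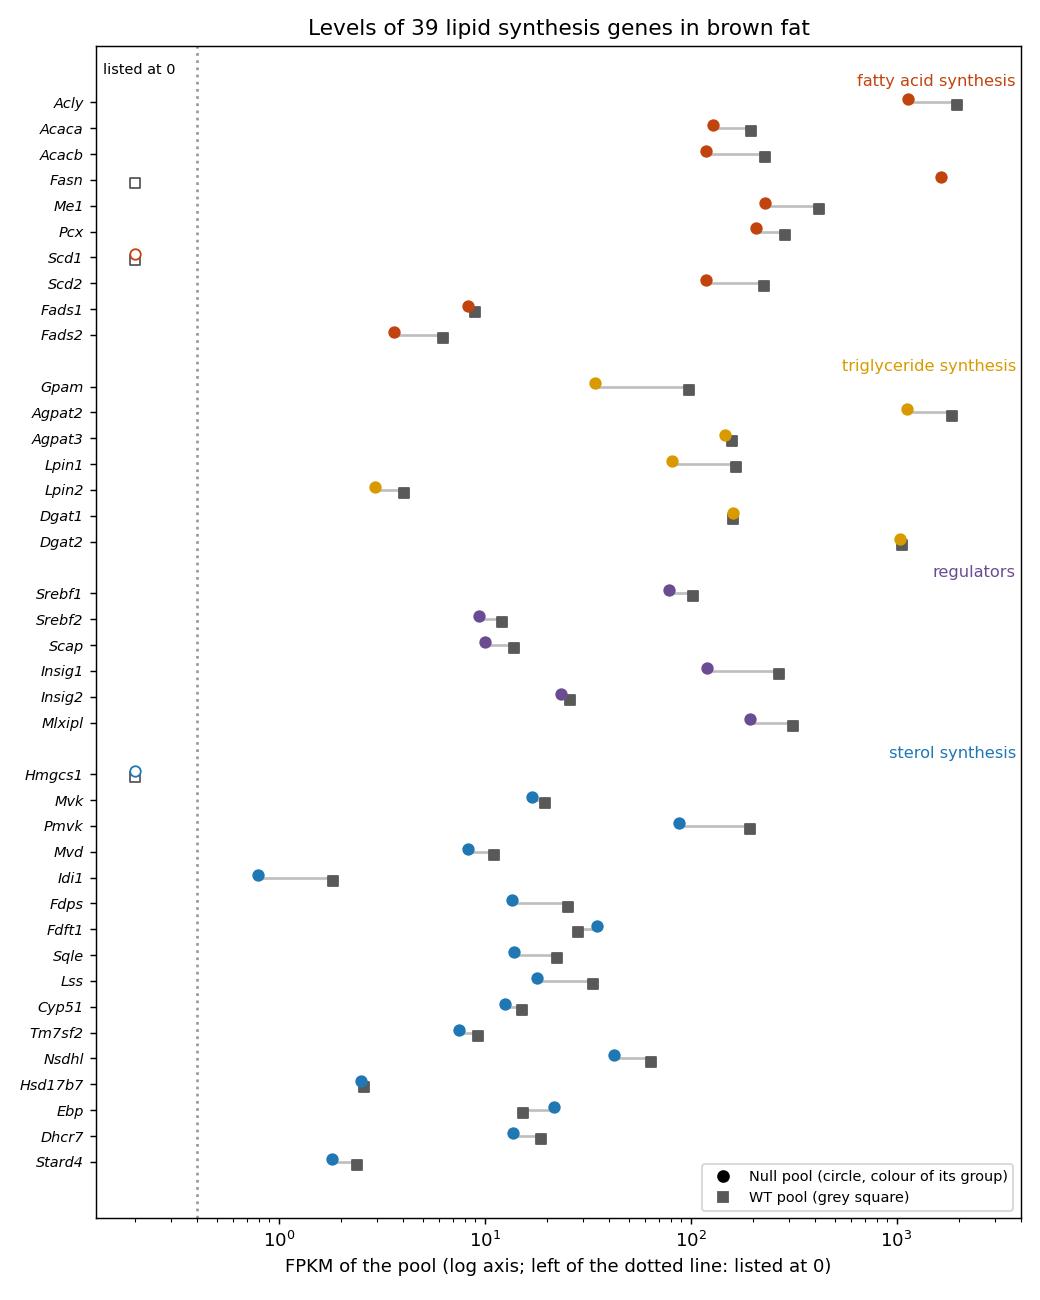
Level of each of the 39 genes in the Null pool (circles) and the WT pool (grey squares), in FPKM on a log axis, by pathway group; open symbols left of the dotted line are entries listed at 0. Circles lie left of squares for 33 of the 36 genes above 0 in both pools, and Fasn, Scd1 and Hmgcs1 have entries at 0.

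Entries at 0 affect 3 of the 39 genes and are read as failed estimates. Fasn, the multidomain fatty acid synthase, was at 1641 FPKM in the Null pool and listed at 0 in the WT pool. Scd1, the main stearoyl-CoA desaturase of fat, and Hmgcs1, the cytosolic HMG-CoA synthase, were listed at 0 in both pools. Gapdh, which every cell uses, stood at only 0.463 FPKM in Null and 3.38 FPKM in WT, so low and missing values in this table do not show that a gene was off. No ratio is given for these 3 genes, and no direction is read from them.

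Lists of general genes known for long and for short mRNAs stood apart in their ratios. For comparison, 25 general genes known for long mRNAs gave a median log2 ratio of -0.52, all 25 being lower in Null and 11 of them by at least 1.5-fold. The 22 measured genes known for short mRNAs gave 0.67, 15 of them higher by at least 1.5-fold, and 66 cytosolic ribosomal protein genes had a median of 0.88. These lengths come from general knowledge, and those lists were drawn up with the values known. By 1.5-fold or more, 47.2% of the lipid genes and 44.0% of the long-mRNA genes were lower. By 2-fold or more, 4 of 36 lipid genes and 0 of 25 long-mRNA genes were lower. Because the long-mRNA list was chosen with its values known, its shares are not an independent comparison. Its highest level in WT was 65.9 FPKM, so it does not cover the abundant lipid genes. The part of mRNA length in the results below was not tested.

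Markers of brown adipocytes were present in both pools: Ucp1 was at 2487 FPKM in Null and 3016 FPKM in WT, and Cidea at 2717 FPKM in Null and 2615 FPKM in WT. The 8 brown adipocyte markers summed to 42446 FPKM in Null and 35014 FPKM in WT, with 4 higher and 4 lower in Null. Most of each sum was Fabp4, at 34679.4 FPKM in Null and 27294.5 FPKM in WT, so the sums mainly follow that gene. Adipoq (0.71), Plin1 (-0.55), Dio2 (-0.97) and Elovl3 (-2.27) had the largest log2 ratios among them. The 10 skeletal muscle fibre markers summed to 1933 FPKM in Null and 2864 FPKM in WT, and 9 of the 10 were lower in Null. The 7 macrophage markers summed to 150 FPKM in Null and 98.7 FPKM in WT, with 6 of 7 higher, and the 3 erythroid markers to 349 FPKM in Null and 113 FPKM in WT. The 5 endothelial markers summed to 194 FPKM in Null and 188 FPKM in WT. Liver and mammary gland also make fat in quantity. Of the 5 hepatocyte markers, only Apoa1 averaged 1 FPKM or more, at 2.07 FPKM in Null and 0.393 FPKM in WT. The 5 summed to 2.66 FPKM in Null and 0.964 FPKM in WT, with Cyp3a11 listed at 0 in both pools. Of the 7 mammary epithelial markers, only Csn2 averaged 1 FPKM or more, at 2.02 FPKM in Null and 0.973 FPKM in WT. The 7 summed to 2.96 FPKM in Null and 1.22 FPKM in WT, with Krt14 listed at 0 in both pools and Krt8 in WT. Such entries do not show that a gene was off. The part of other cell types in the lipid gene results was not tested.

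The levels of the pathway were uneven. Among the 36 members with a ratio, the upper end was shared by both genotypes. The same 3 genes, Acly, Agpat2 and Dgat2, were the most abundant of these 36 in each pool. Fasn, Scd1 and Hmgcs1 are left out because of their entries at 0, so their place in this order is unknown. Together the 3 top genes held 62.6% of the summed FPKM of the 36 in Null and 60.8% in WT. The 36 summed to 5282 FPKM in Null and 8053 FPKM in WT, which was 0.895% of all FPKM in Null and 1.58% in WT. At or above 100 FPKM there were 12 of them in Null and 15 in WT, and under 10 FPKM there were 10 in Null and 7 in WT.

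Within fatty acid synthesis, all 8 genes with a ratio were lower in Null, 6 of them by 1.5-fold or more. Their median log2 ratio was -0.72, or -0.65 when the entry of Fasn is counted. Acly, ATP citrate lyase, which makes cytosolic acetyl-CoA, was at 1139 FPKM in Null and 1969 FPKM in WT, a log2 ratio of -0.79. It ranked 64 among all genes by FPKM in Null and 21 in WT, so it was among the abundant transcripts of the tissue in both pools. Me1, malic enzyme, which supplies NADPH for chain building, was at 230 FPKM in Null and 419 FPKM in WT (-0.86). Pcx, the mitochondrial pyruvate carboxylase that refills oxaloacetate for citrate export, was at 208 FPKM in Null and 286 FPKM in WT (-0.45), short of the 1.5-fold line. Both of these suppliers were thus lower in Null, Me1 by more.

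Acetyl-CoA carboxylase makes malonyl-CoA, and its forms differ in role: Acaca encodes the cytosolic enzyme of chain synthesis, and Acacb the form at the mitochondrial surface, where malonyl-CoA restrains fatty acid oxidation. Acaca was at 128 FPKM in Null and 197 FPKM in WT (-0.61). Acacb was at 118 FPKM in Null and 230 FPKM in WT (-0.96). Acaca made up 52.1% of the 2 forms in Null and 46.1% in WT, so the 2 transcripts were near parity in both pools.

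Desaturases act on the finished chain. Scd2, the delta-9 desaturase known from brain and from developing tissue, was at 119 FPKM in Null and 227 FPKM in WT (-0.93). The Scd genes are similar copies at a single cluster, so their reads may be shared in the authors' counting, and the value of Scd2 is uncertain beside a Scd1 listed at 0. For polyunsaturated chains, Fads2, the delta-6 desaturase, was at 3.63 FPKM in Null and 6.28 FPKM in WT (-0.65). Fads1, the delta-5 desaturase that acts after it, was at 8.33 FPKM in Null and 8.997 FPKM in WT (-0.10). Both Fads genes were low in this tissue, and the difference in Fads2 amounts to under 3 FPKM.

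**Figure D2:**
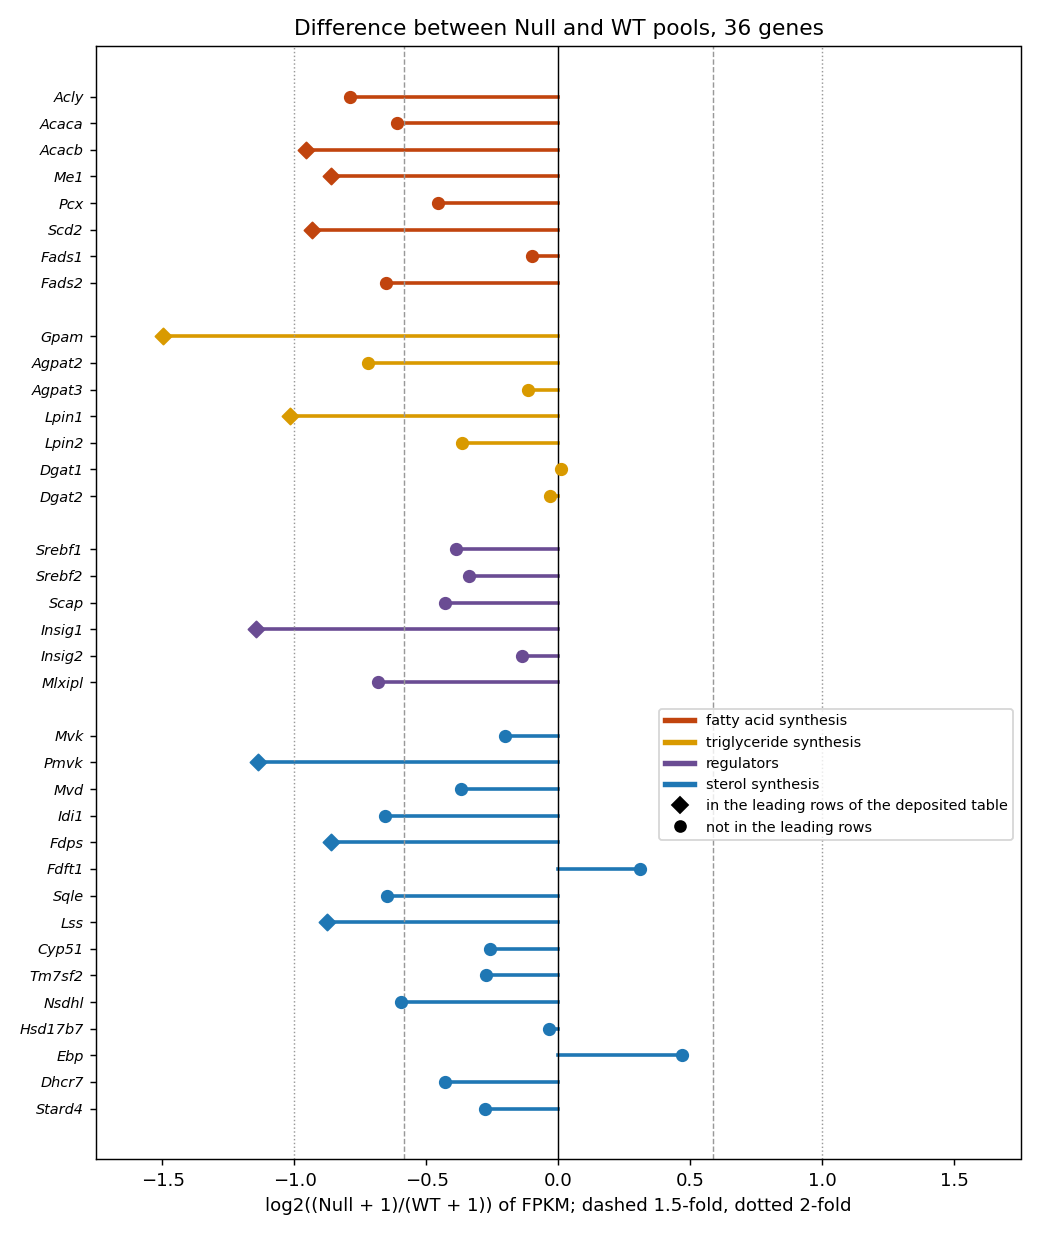
Log2 ratio of Null to WT for the 36 genes above 0 in both pools, grouped by pathway and in pathway order; dashed lines mark 1.5-fold, dotted lines 2-fold, and diamonds mark the 9 genes in the ratio-sorted leading rows of the deposited table. Bars point left (lower in Null) for all genes except Fdft1, Ebp and Dgat1, of which Dgat1 turns with other scalings, and pass the 2-fold line for Gpam, Insig1, Pmvk and Lpin1.

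Along triglyceride synthesis the early and late steps stood apart in size. Of 7 genes, 6 were lower in Null, 3 of them by 1.5-fold or more, and the median log2 ratio was -0.37. Gpam, the mitochondrial glycerol-3-phosphate acyltransferase that attaches the first chain, was at 34.2 FPKM in Null and 98.5 FPKM in WT. At 34.7% of its WT level, with a log2 ratio of -1.50, it was the lowest of the 36 members, and 0.621% of all genes measured had a lower ratio. Agpat2, which attaches the second chain and whose loss causes lipodystrophy in humans and mice, was at 1126 FPKM in Null and 1856 FPKM in WT (-0.72). Agpat3, a related acyltransferase, was at 147 FPKM in Null and 159 FPKM in WT (-0.12). Agpat2 therefore carried most of the summed level of this pair, 88.5% in Null and 92.1% in WT.

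Lipins remove the phosphate to give diacylglycerol. Lpin1, the main lipin of fat, was at 81.4 FPKM in Null and 166 FPKM in WT (-1.02), and Lpin2 at 2.93 FPKM in Null and 4.06 FPKM in WT (-0.37). The last step, catalysed by 2 unrelated acyltransferases, hardly differed. Dgat1 was at 161 FPKM in Null and 160 FPKM in WT (0.01), and Dgat2, the more abundant of them, at 1044 FPKM in Null and 1068 FPKM in WT (-0.03). With other scalings Dgat1 turned to lower in Null, as far as -0.20.

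The 6 control genes were all on the lower side in Null, 2 of them by 1.5-fold or more, and their median log2 ratio was -0.41. Srebf1, which encodes the SREBP-1 forms that drive fatty acid genes, was at 78.3 FPKM in Null and 103 FPKM in WT (-0.39). Srebf2, which encodes the sterol-directed SREBP-2, was at 9.32 FPKM in Null and 12.1 FPKM in WT (-0.34). Srebf1 made up 89.4% of their summed level in Null and 89.5% in WT, so the balance between them was the same to within 1 percentage point. Scap, the sterol sensor that escorts SREBPs out of the endoplasmic reticulum, was at 9.995 FPKM in Null and 13.8 FPKM in WT (-0.43). None of these 3 reached 1.5-fold.

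Insig proteins hold SCAP back when sterols are plentiful. Insig1, itself a classical SREBP target, was at 120 FPKM in Null and 268 FPKM in WT, a log2 ratio of -1.15. Insig2, whose transcription is controlled differently, was at 23.5 FPKM in Null and 26.0 FPKM in WT (-0.14). Insig1 exceeded Insig2 5.12-fold in Null and 10.3-fold in WT, and made up 83.6% of their summed level in Null and 91.1% in WT. Mlxipl, which encodes ChREBP, was at 194 FPKM in Null and 312 FPKM in WT (-0.68).

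Transcripts of sterol synthesis had a lower summed level than those of fatty acid or of triglyceride synthesis in both pools. Pmvk was the most abundant of the 15 measured, and the level of Hmgcs1, listed at 0, is unknown. Of 16 genes, 15 were measured, 13 of those were lower in Null, 6 of them by at least 1.5-fold, and the median log2 ratio was -0.37. In the mevalonate arm, the 5 genes with a ratio were all lower, 3 by 1.5-fold or more. Pmvk, phosphomevalonate kinase, was at 87.3 FPKM in Null and 193 FPKM in WT (-1.14). Fdps, farnesyl diphosphate synthase, was at 13.5 FPKM in Null and 25.3 FPKM in WT (-0.86). Idi1, which isomerises the building block of the chain, was at 0.790 FPKM in Null and 1.82 FPKM in WT (-0.66), near the filter on low values. Mvk and Mvd, the kinase and decarboxylase on either side of Pmvk, differed less. Mvk was at 17.0 FPKM in Null and 19.7 FPKM in WT (-0.20), and Mvd at 8.32 FPKM in Null and 11.0 FPKM in WT (-0.37).

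At the branch to sterols the neighbouring enzymes differed in direction. Fdft1, squalene synthase, was at 35.2 FPKM in Null and 28.2 FPKM in WT (0.31). Sqle, the epoxidase that follows, was at 13.9 FPKM in Null and 22.4 FPKM in WT (-0.65), and Lss, which closes the ring to lanosterol, at 17.8 FPKM in Null and 33.6 FPKM in WT (-0.88). Thus squalene synthase was higher in Null and the next 2 enzymes were lower by 1.5-fold or more.

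After lanosterol, 5 of 6 enzymes were lower in Null and 1 of them by 1.5-fold. Nsdhl, a C4 demethylation enzyme, was at 42.3 FPKM in Null and 64.4 FPKM in WT (-0.60), just past that line. Cyp51, the lanosterol demethylase, was at 12.5 FPKM in Null and 15.2 FPKM in WT (-0.26), and Dhcr7, the last reductase, at 13.7 FPKM in Null and 18.8 FPKM in WT (-0.43). Ebp, the sterol isomerase, was the highest of all members in ratio, at 21.7 FPKM in Null and 15.4 FPKM in WT (0.47). The reductase Tm7sf2 had a log2 ratio of -0.28 and Hsd17b7, a ketoreductase, of -0.03. Stard4, which carries cholesterol between membranes, was at 1.81 FPKM in Null and 2.41 FPKM in WT (-0.28). Ebp and Fdft1 were higher in Null, and every other member with a ratio apart from Dgat1 was lower, under all scalings and pseudocounts tried.

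**Figure D3:**
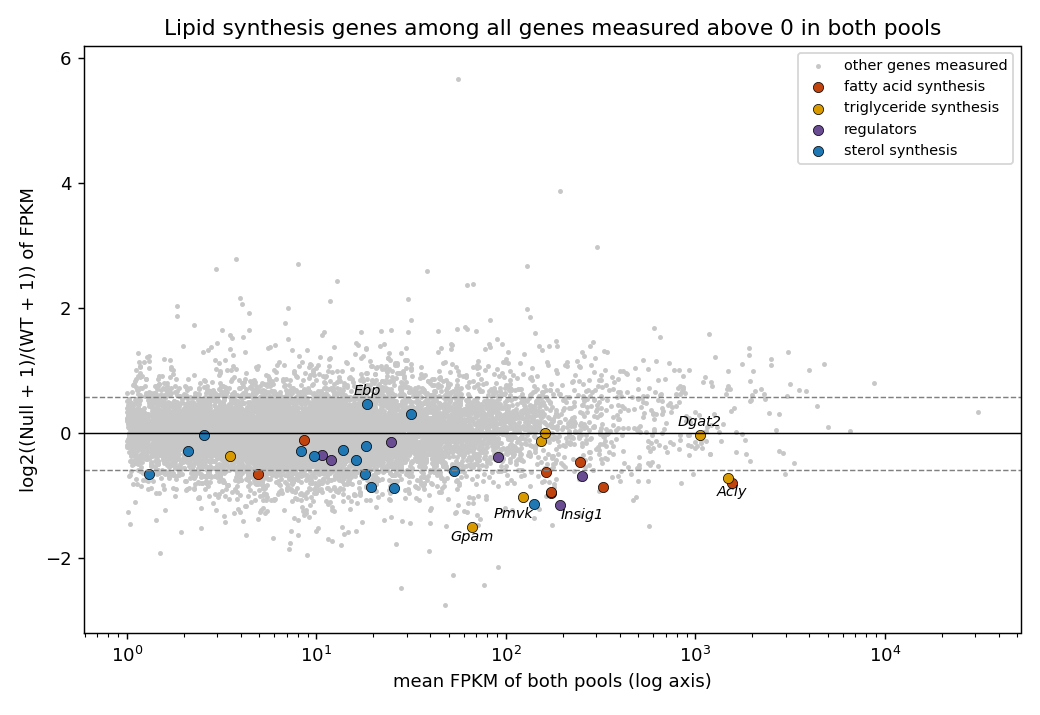
Log2 ratio of Null to WT against the mean FPKM of both pools (log axis) for the genes measured above 0 in both pools, with the 36 lipid synthesis genes in colour; dashed lines mark 1.5-fold. The coloured points at or above 100 FPKM lie mostly below the lower dashed line (10 of 14), where 6.62% of all genes at that level lie.

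The members were also set against genes of similar level. Of the 14 members averaging 100 FPKM or more and having a ratio, 10 had a Null level at least 1.5-fold under WT. Among all 785 genes at that level above 0 in both pools, 6.62% were lower to that extent and 22.2% were higher. Of the 22 less abundant members, 7 were lower by 1.5-fold or more, against 6.38% of 10731 genes under 100 FPKM. The median log2 ratio was -0.76 in the 14 abundant members and -0.37 in the 22 others.

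The authors' deposited table opens with 727 genes sorted by their ratio, 331 higher and 396 lower in Null, before 21825 genes in near-alphabetical order. The sources used here do not say what puts a gene into that opening block. It holds 9 of the members, Gpam, Insig1, Pmvk, Lpin1, Acacb, Scd2, Lss, Me1 and Fdps, all of them lower in Null. That is 24.3% of the 37 members measured, and 3.40% of all genes measured were in the lower part of that block. The other members lower by 1.5-fold or more, Acly, Acaca, Fads2, Agpat2, Mlxipl, Idi1, Sqle and Nsdhl, were not in it.

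Other genes of the same pathways were counted from 5 lists. Of 56 companions measured, 37 were lower in Null (66.1%), 10 of them (17.9%) at least 1.5-fold. Among the 11516 genes measured above 0 in both pools, these shares were 49.4% and 6.40%. No companion was higher by 1.5-fold or more, against 7.62% of those 11516 genes, and the median log2 ratio of the companions was -0.16. Among the 11 genes of acetyl-CoA supply and chain length, 9 were lower, 5 of them by 1.5-fold. The elongase Elovl6 was at 143 FPKM in Null and 353 FPKM in WT (-1.30), and Acss2, which makes acetyl-CoA from acetate, at 305 FPKM in Null and 638 FPKM in WT (-1.06), while Elovl5 (0.15) and Thrsp (0.03) were the 2 on the higher side. All 6 genes of NADPH supply were lower, with Pgd at 298 FPKM in Null and 504 FPKM in WT (-0.76) and G6pdx at 94.9 FPKM in Null and 143 FPKM in WT (-0.59), both of the oxidative pentose phosphate route.

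The remaining lists held 1 of 10, 0 of 16 and 2 of 13 genes lower by 1.5-fold, against 6.40% of the 11516 genes. Lists this short cannot separate such counts from that share. Of 10 other triglyceride synthesis genes, 6 were lower, led by the glycerol-3-phosphate dehydrogenase Gpd1, at 2296 FPKM in Null and 3615 FPKM in WT (-0.65), and Agpat6 (-0.51), and Agpat5 (0.34) and Agpat4 (0.25) were highest. The 16 genes of SREBP handling and its partner factors had a median of 0.01, with 8 lower, 8 higher and 0 past 1.5-fold in either direction. The protease gene Mbtps1 (-0.47) and Mlxip (-0.36) were lowest there, and the E-box factor Usf1 (0.56) and the NF-Y subunit gene Nfyc (0.26) highest. Of 13 further genes of sterol synthesis, uptake and export, 8 were lower. Lpl, lipoprotein lipase (0.20), and Npc2, a lysosomal cholesterol carrier (0.17), were highest there.

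**Figure D4:**
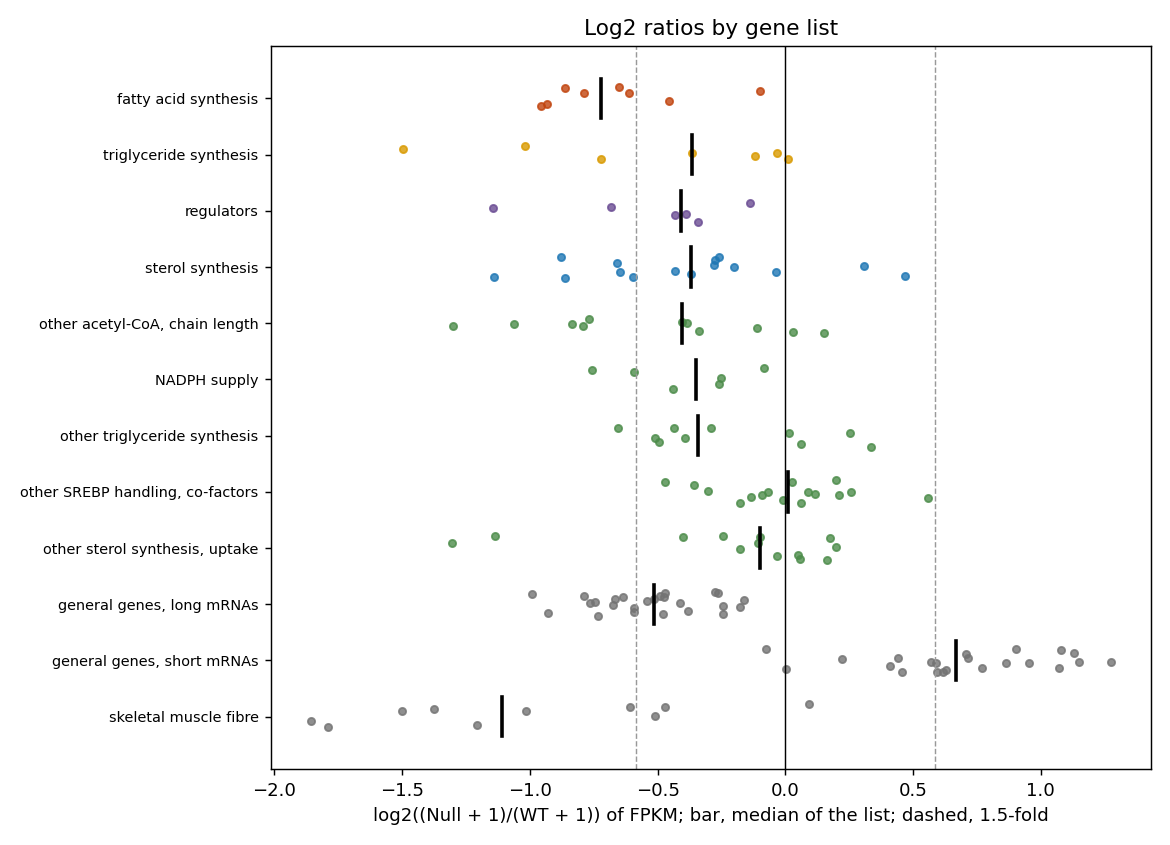
Log2 ratio of Null to WT for each gene of the member groups (colour), the companion lists (green) and, for comparison, general genes with long or short mRNAs and muscle fibre markers (grey), counting genes above 0 in both pools; black bars are list medians and dashed lines 1.5-fold. The fatty acid synthesis median lies at -0.72, the SREBP handling median at 0.01, and the long-mRNA and short-mRNA medians at -0.52 and 0.67. The long-mRNA and short-mRNA lists were drawn up with the values known.

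Promoters are shown because SREBPs act there with partner factors, chiefly NF-Y, which binds CCAAT, and because E-box factors and SREBP-1 can bind CACGTG. RefSeq promoters (build GRCm38.p6) were found for 30 of the 39 genes, each from 250 bases before to 50 bases after the most upstream start, and both strands were searched. The word CCAAT occurred in 21 of these 30 promoters (70.0%), against 38.7% of the 8186 genes measured that had a promoter and 38.0% of all 27025 promoters of the same length. It was present in 11 of 12 sterol synthesis genes, 5 of 6 regulators, 4 of 7 fatty acid synthesis genes and 1 of 5 triglyceride synthesis genes. CACGTG occurred in 6 of 30 (20.0%), against 10.6% of measured genes, and the sterol element word TCACNCCAC in 1 of 30, Hmgcs1, against 1.01%. Presence of a word is a description of the sequence and not of binding. The 5 genes of the deposited table's opening block with CCAAT upstream of the start are printed with Hmgcs1, 250 bases each up to the start, 5′ to 3′ along the gene, with the 3 words searched in capitals. The reverse complement of the first word reads ATTGG.
Gpam, chr19:55127239-55127488, minus strand: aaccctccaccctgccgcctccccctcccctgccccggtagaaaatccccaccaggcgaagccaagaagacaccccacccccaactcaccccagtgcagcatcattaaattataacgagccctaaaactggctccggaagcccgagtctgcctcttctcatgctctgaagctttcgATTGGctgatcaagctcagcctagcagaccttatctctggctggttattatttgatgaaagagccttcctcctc
Insig1, chr5:28071162-28071411, plus strand: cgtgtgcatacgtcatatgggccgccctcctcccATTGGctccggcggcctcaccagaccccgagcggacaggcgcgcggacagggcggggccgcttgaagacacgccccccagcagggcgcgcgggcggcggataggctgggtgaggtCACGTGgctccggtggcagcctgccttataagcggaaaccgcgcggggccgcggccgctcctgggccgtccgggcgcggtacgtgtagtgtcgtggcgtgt
Pmvk, chr3:89454291-89454540, plus strand: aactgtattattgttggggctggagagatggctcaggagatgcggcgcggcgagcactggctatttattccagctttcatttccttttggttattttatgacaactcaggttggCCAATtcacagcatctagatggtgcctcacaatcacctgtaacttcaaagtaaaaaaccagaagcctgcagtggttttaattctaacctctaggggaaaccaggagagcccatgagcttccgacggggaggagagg
Acacb, chr5:114165268-114165517, plus strand: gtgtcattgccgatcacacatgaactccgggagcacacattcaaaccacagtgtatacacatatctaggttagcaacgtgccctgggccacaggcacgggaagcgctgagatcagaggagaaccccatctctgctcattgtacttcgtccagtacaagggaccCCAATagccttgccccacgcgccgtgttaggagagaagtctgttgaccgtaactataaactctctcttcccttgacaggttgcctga
Lss, chr10:76531355-76531604, plus strand: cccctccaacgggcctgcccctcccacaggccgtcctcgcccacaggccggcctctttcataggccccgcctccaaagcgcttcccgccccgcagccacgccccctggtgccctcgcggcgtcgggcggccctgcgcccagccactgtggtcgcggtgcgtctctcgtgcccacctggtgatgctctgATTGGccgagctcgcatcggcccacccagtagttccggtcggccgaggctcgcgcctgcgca
Hmgcs1, chr13:119690101-119690350, plus strand: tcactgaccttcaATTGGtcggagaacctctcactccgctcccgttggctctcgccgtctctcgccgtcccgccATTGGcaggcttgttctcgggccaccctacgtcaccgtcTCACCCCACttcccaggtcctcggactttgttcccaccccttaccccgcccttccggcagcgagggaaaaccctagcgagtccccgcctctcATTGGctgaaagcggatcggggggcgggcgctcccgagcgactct

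In these 6 promoters the words lay at different distances. Gpam, the lowest member in ratio, has ATTGG beginning 74 bases before the start, and Lss has it 62 bases before. Insig1 combines ATTGG at 216 bases with CACGTG at 101 bases before the start. Hmgcs1 carries ATTGG at 237, 176 and 45 bases and TCACCCCAC at 137 bases before the start, and was itself listed at 0 in both pools. Ebp, which was higher in Null, also has CCAAT on the reverse strand, at 170 and 55 bases, so this word was not confined to lower members. Ratios of members with and without the word were not compared.

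The microRNA data, 1 library per genotype, were read for the deleted microRNAs and for microRNAs tied to lipid genes. Values carry the heading RPM. Exact Poisson intervals at 95% come from whole reads implied by the step between values, and they cover counting error only. The mature sequences of 6 of these microRNAs, from RefSeq (GRCm38.p6), are given with bases 2 to 8, the seed, in capitals. Seeds were compared only among the microRNAs listed for this report, so loss of a seed from the tissue was not tested.
miR-193b-3p: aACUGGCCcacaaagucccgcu
miR-365-3p: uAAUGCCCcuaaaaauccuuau
miR-33-5p: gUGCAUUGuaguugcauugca
miR-96-5p: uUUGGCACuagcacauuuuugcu
miR-182-5p: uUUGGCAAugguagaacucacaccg
miR-183-5p: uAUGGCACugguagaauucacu

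As a check of the labels, miR-193b-3p was at 11.5 RPM (10.2 to 13.0) in Null and 3705 RPM (3680 to 3730) in WT. miR-365-3p, which a gene copy outside the deletion also makes, was at 798 RPM (787 to 809) in Null and 1442 RPM (1427 to 1458) in WT. miR-193b-3p differed in the direction the labels give, and miR-365-3p in the direction the series title gives.

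miR-33 is encoded in an intron of Srebf2 and is known to repress the cholesterol exporter Abca1. Mature miR-33-5p was scarce, at 12.5 RPM (11.2 to 14.0) in Null and 11.6 RPM (10.2 to 13.0) in WT, with intervals that overlap. Its partner strand miR-33-3p was at 5.79 RPM (4.87 to 6.83) in Null and 7.01 RPM (5.96 to 8.18) in WT, and these intervals overlap too. The host gene Srebf2 had a log2 ratio of -0.34, and Abca1 was at 15.8 FPKM in Null and 21.1 FPKM in WT (-0.40).

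The cluster of miR-96, miR-182 and miR-183 is a known target of SREBP-2, and its seeds differ, although miR-96-5p and miR-182-5p share bases 2 to 7. miR-182-5p was at 19687 RPM (19631 to 19742) in Null and 13861 RPM (13813 to 13909) in WT, a log2 ratio of 0.51. miR-183-5p was at 1330 RPM (1316 to 1345) in Null and 581 RPM (571 to 591) in WT (1.19). miR-96-5p was at 83.2 RPM (79.6 to 86.9) in Null and 79.3 RPM (75.7 to 83.1) in WT (0.07), with overlapping intervals. The 3 microRNAs of the cluster therefore differed in ratio, while the median log2 ratio of the 323 microRNAs averaging 10 RPM or more was 0.17.

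Of 9 lipid-linked microRNAs in the table apart from the deleted ones, 8 averaged 10 RPM or more. Among these 8, 1 was higher in Null by 1.5-fold or more, miR-183-5p, against 8.05% of the 323, and 1 was lower, miR-122-5p, against 6.19%. miR-122-5p, which is abundant in liver and sustains sterol synthesis genes there, was at 4.44 RPM (3.64 to 5.36) in Null and 25.2 RPM (23.2 to 27.3) in WT. miR-27a-3p and miR-27b-3p, which share a seed and are known to restrain fat cell formation, had log2 ratios of 0.35 and 0.22. miR-378a-3p, encoded within the coactivator gene Ppargc1b, was the most abundant of the 9, at 162708 RPM in Null and 188029 RPM in WT (-0.21).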

How the data were processed

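Brown adipose tissue was profiled in 3 Null and 3 WT mRNA samples and in 1 Null and 1 WT microRNA sample, grouped by the labels. The mRNA libraries were TruSeq poly(A) libraries, per the extraction text of the labels. Per the submitters' processing notes, CASAVA, TopHat, BWA, edgeR and DESeq were used with build mm9, without a stated role. The authors deposited FPKM in 1 column per genotype, per the file headers, and how the libraries were combined is not stated there. The deposited microRNA values, headed RPM, are treated as a signal. Each was within 0.01 of a whole multiple of 0.0411 in Null and 0.0438 in WT for 100% of values, which gave the implied reads. The deposited ratio and p-value columns of that table compare 1 library with 1 library and were not used.

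From these values log2 ratios with a pseudocount of 1 FPKM (1 RPM for microRNAs) were computed with pandas 2.3.3 and numpy 2.4.6, and intervals with scipy 1.17.1. Genes averaging 1 FPKM or more over the pools, and microRNAs averaging 10 RPM or more, count as measured. A difference was called at 1.5-fold or at 2-fold, with no test. All 39 members are named, as are the 2 genes with the largest ratio in each direction of each companion list. Some genes of the sterol companion list are not reported here. In addition, Abca1 was named for its role, after its values were seen. Members and lists were chosen with earlier results of these data known. Ratio and scaling steps were tested on simulated data. Alternatives changed the pseudocount, filter, scaling and handling of zeros.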

Additional observations from a re-analysis of the deposited data

How the results depend on the processing

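Counting the entry of Fasn, the group medians of the log2 ratio were -0.65 for fatty acid synthesis, -0.37 for triglyceride synthesis, -0.41 for regulators and -0.37 for sterol synthesis. With a pseudocount of 0.1 FPKM they were -0.77 for fatty acid synthesis, -0.46 for triglyceride synthesis, -0.43 for regulators and -0.40 for sterol synthesis, and with 10 FPKM -0.58 for fatty acid synthesis, -0.12 for triglyceride synthesis, -0.30 for regulators and -0.16 for sterol synthesis. With no filter on low values the fatty acid median was -0.63 and the sterol median -0.32. A mean of at least 5 FPKM gave -0.70 for fatty acid, -0.42 for triglyceride and -0.40 for sterol synthesis. Quantile normalization gave -0.75 for fatty acid synthesis, -0.34 for triglyceride synthesis, -0.45 for regulators and -0.33 for sterol synthesis. Median of ratios scaling gave -0.67 for fatty acid synthesis, -0.38 for triglyceride synthesis, -0.43 for regulators and -0.39 for sterol synthesis. Scaling to the same sum of FPKM, which moved the median of all genes to -0.18, gave -0.83 for fatty acid synthesis, -0.53 for triglyceride synthesis, -0.61 for regulators and -0.56 for sterol synthesis. Leaving out entries at 0 gave -0.72 for fatty acid synthesis, and the count of members higher by 1.5-fold or more became 0, against 1 (Fasn) with that entry counted. With Scd2 left out, an alternative chosen after seeing the data, the fatty acid median was -0.63 and 16 members were lower by 1.5-fold or more. The cause of these shifts was not tested beyond what each setting changes by construction. The count of members lower by 1.5-fold or more was 17, and ranged from 12 with a pseudocount of 10 FPKM to 21 with scaling to the same sum, and the count lower by 2-fold or more was 4, with 3, 9 and 10 under a pseudocount of 10 FPKM, quantile normalization and scaling to the same sum. Of the 36 genes with a ratio, 34 were lower in Null with quantile normalization, median of ratios scaling and scaling to the same sum, Dgat1 being the one that turned. No paired analysis was possible because the table carries 1 column per genotype and no replicate numbers, and for that reason no replicate could be left out. A correction for protein or transcript length was not run, since no such lengths were in the tables used.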

Other observations

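The smaller copies of the Scd cluster also had low entries beside the missing Scd1. Scd3 was at 0.192 FPKM in Null and 1.85 FPKM in WT, and Scd4 at 0.210 FPKM in Null and 1.18 FPKM in WT. Both stood in the opening block of the authors' deposited table among the genes lower in Null. How the authors counted reads shared by these similar copies is not given in the sources used here, so the entries are uncertain, that of Scd2 included, and no direction is read for the desaturase as a whole.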
